A study of Mus musculus with 32 samples.

Results

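The anterior prostate, the lobe that in the mouse lies along the seminal vesicles, was set against the prostatic urethra, the stretch of urethra into which the prostate ducts open, both from untreated mice. RNA abundance had been measured by RNA sequencing in 32 libraries of a study of benign prostatic hyperplasia, and the comparison used 8 of them, namely anterior prostate (AP) control libraries 6, 7, 8 and 9 and urethra control libraries 6, 7, 8 and 10. The mice were C57/BL6 males without hormone implants, their age is not given in the labels, and the tissues had been flash frozen. AP and urethra libraries of mice that carried testosterone (25 mg) and oestrogen (2.5 mg) implants under the skin for 2 weeks (T+E2), with 4 libraries each, and the 4 control libraries of the dorsal lateral prostate (DLP) served as side comparisons. The labels do not say that each library is a separate animal, so p-values measure only the spread between these libraries. Values are TPM, a relative transcript abundance scaled to the same total in each library and corrected for transcript length. Of 13780 genes in the table, 13060 reached 1 TPM in at least 4 of the 8 libraries and were tested.

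The prostate lobes are branched tubules of tall secretory luminal cells over a thin basal layer, wrapped in smooth muscle, and they release proteins, zinc and polyamines into the semen under the control of androgen. The prostatic urethra is lined by urothelium and receives the proximal ends of the prostate ducts. Around it lie small glands, vessels and nerves, and outside them the striated muscle of the urethral sphincter, which contracts under voluntary control. Both tissues arise from the urogenital sinus, in which mesenchymal signals of the Wnt, Bmp, Hedgehog and Fgf families place the prostate buds.

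The 4 genes whose upstream sequence is shown stand for abundant transcripts that differed between the tissues. Pbsn and Tgm4 represent anterior prostate secretion, Prol1 the secreted products found in the urethra, and Myh4 its striated muscle. The sequences are the 250 bases before the RefSeq gene start in the GRCm38.p6 build, written 5′ to 3′ on the strand of the gene. The positions are chrX:77853501-77853750 (minus strand) for Pbsn, chr9:123034491-123034740 (plus strand) for Tgm4, chr5:88317062-88317311 (plus strand) for Prol1 and chr11:67237562-67237811 (plus strand) for Myh4. Capitals mark AGAACA, a half-site of the steroid receptor response element, and TATAAA, the TATA box, each searched on both strands.
Pbsn: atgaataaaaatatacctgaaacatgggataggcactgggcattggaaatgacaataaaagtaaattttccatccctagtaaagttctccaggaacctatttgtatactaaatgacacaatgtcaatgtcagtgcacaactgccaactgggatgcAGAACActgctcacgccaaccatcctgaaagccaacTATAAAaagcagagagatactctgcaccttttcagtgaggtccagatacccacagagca
Tgm4: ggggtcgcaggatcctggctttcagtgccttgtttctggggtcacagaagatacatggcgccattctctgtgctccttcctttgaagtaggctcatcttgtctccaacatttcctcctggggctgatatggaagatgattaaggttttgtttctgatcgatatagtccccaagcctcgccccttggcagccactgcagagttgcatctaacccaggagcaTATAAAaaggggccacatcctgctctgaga
Prol1: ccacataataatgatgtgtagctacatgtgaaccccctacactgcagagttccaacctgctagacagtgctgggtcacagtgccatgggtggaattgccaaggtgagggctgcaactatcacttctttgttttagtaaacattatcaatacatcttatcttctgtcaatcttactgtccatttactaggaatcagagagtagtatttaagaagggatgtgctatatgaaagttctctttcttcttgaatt
Myh4: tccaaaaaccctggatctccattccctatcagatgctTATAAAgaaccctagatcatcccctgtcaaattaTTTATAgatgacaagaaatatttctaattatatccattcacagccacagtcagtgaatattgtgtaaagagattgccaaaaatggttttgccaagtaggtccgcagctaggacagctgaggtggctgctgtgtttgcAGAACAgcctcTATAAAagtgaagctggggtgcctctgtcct
The windows of Pbsn and Tgm4 each hold 1 TATAAA, and that of Pbsn also holds 1 AGAACA. Prol1 has neither string in its window. Myh4 has 3 TATAAA and 1 AGAACA. Over 32851 windows of the same length, 16.1% hold AGAACA and 12.4% hold TATAAA on either strand. CANNTG, the E-box that muscle regulatory factors can bind, occurs 2 times before Myh4, 2 times before Pbsn, 1 time before Prol1 and 0 times before Tgm4, and in 66.2% of all windows. The 3 strings do not overlap in these windows, and a match is only a description of the letters.

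Each tissue carried some of the transcripts its label calls for. Urothelial genes were uneven in the urethra and divided between the tissues, as given further on. Hoxb13, the homeobox factor of the prostate and hindgut end, was at 384, 401, 431 and 378 TPM in AP libraries 6 to 9, against 27.6, 36.3, 54.4 and 24.2 TPM in urethra libraries 6, 7, 8 and 10. The urethral libraries held the superficial urothelial gene Upk1a at 284 ± 30.4 TPM (SD, n = 4), but the uroplakin genes Upk2 and Upk3a averaged 6.96 and 0.570 TPM there. Between 12289 and 13104 genes reached 1 TPM per library. TPM keep no sequencing depth, so the counting error behind a value is unknown. In bulk tissue, fewer cells of a type and less RNA per cell cannot be told apart.

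Some libraries of each tissue held more transcripts of the other tissue or of other organs than the rest. In urethra libraries 7 and 8, Pbsn (probasin, an androgen-dependent secreted lipocalin) stood at 1948 and 6304 TPM, against 732 and 548 TPM in urethra libraries 6 and 10. Spink3, a trypsin inhibitor at 0 to 0.67 TPM in the 4 AP libraries, was at 981 and 674 TPM in urethra libraries 7 and 8 and at 54.4 and 61.2 TPM in the other two. Tgm4, in contrast, was lowest in urethra library 8, at 31.6 TPM. A set was formed of the 15 genes furthest below the urethra, with predicted and RIKEN transcripts left out. In AP libraries 8 and 9 the summed TPM of this set came to 0.116% and 0.109% of its mean urethral sum. In AP libraries 6 and 7 it came to 0.019% and 0.00429%. AP library 9 also held seminal vesicle transcripts at 5.43% of its TPM. Without AP libraries 8 and 9 together 9388 genes were called between the tissues, and without urethra libraries 7 and 8 together 8889.

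**Figure D1:**
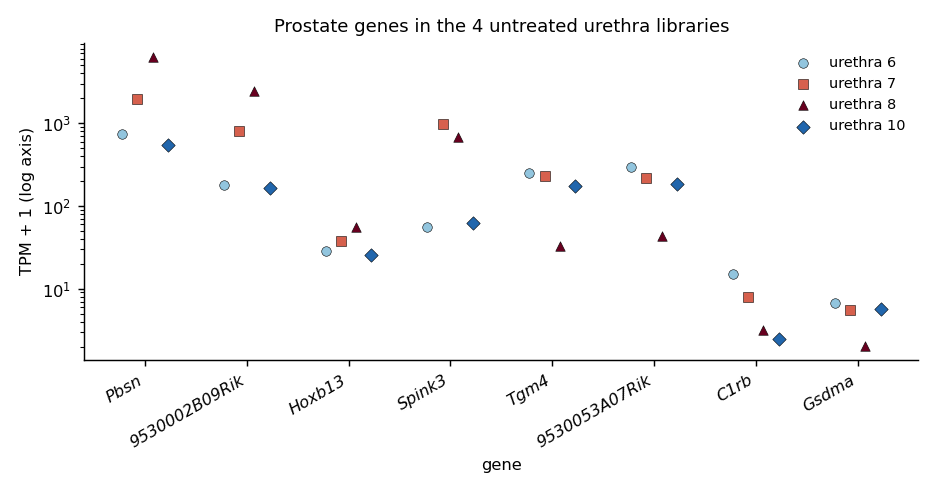
TPM + 1 on a log axis of 8 genes of prostate secretion and identity in each of the 4 untreated urethra libraries; each point is 1 library. Pbsn, 9530002B09Rik, Hoxb13 and Spink3 stand highest in urethra libraries 7 and 8, whereas Tgm4, 9530053A07Rik and Gsdma are lowest in urethra library 8.

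The tissues differed in most of their measured transcripts. Limma on log2(TPM + 1) with Benjamini-Hochberg adjustment over 13060 genes called 9853 genes at an adjusted p under 0.05, which is 75.4%: 5518 were higher in AP (42.3%) and 4335 lower (33.2%). At least a 2-fold difference was found for 1293 higher genes (9.9%) and 1948 lower genes (14.9%), and at least an 8-fold difference for 126 (0.965%) and 428 (3.28%). The 4 values of AP lay apart from the 4 of the urethra for 9225 genes (70.6%). The median log2 difference (AP minus urethra) over all genes tested was 0.10. TPM divide each library by its own total, and 10 genes made up 19.1 to 20% of each AP library, while 10 other genes made up 27.3 to 31.6% of each urethra library. A rescaling then left out these genes and the prostate secretion, seminal vesicle and skeletal muscle lists, together named below as the leading genes of both tissues. With it the median moved by -0.29 and 3468 genes were higher and 6245 lower, so small differences depend on this choice. The setting named below as rescaling without prostate secretion genes also left out the seminal vesicle list. A gene that was low in AP could pass the filter through the urethra alone, and the reverse, so counts over the members tested of a list are descriptions. Such counts are to be read against the 42.3% higher and 33.2% lower over all genes. In the paragraphs that follow, log2 differences are AP minus urethra ± SE, adjusted p-values are from this limma fit, and per-library values run in the order AP 6, 7, 8, 9 and urethra 6, 7, 8, 10.

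**Figure D2:**
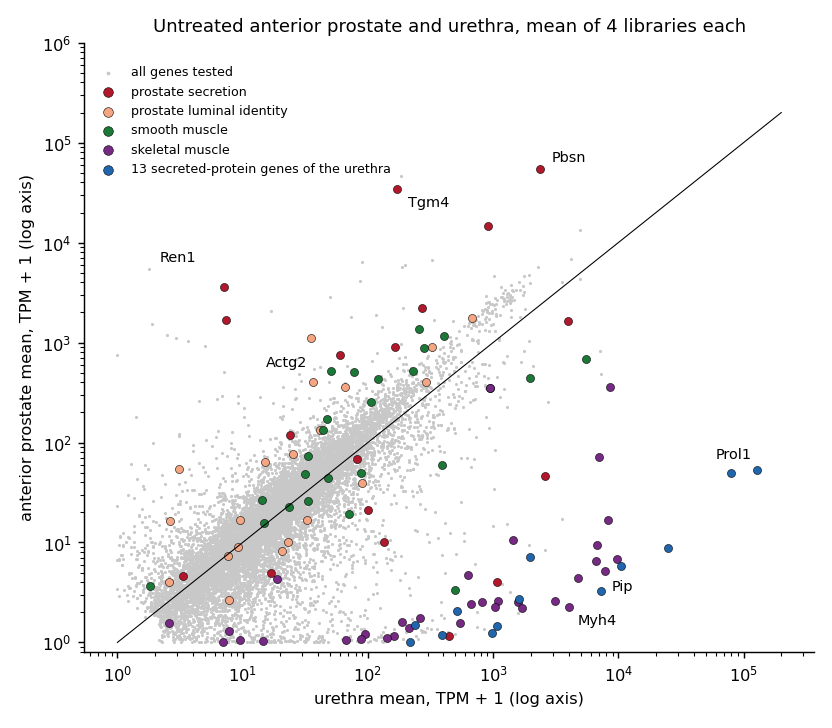
Mean TPM + 1 over the 4 AP control libraries (vertical, log axis) against the mean over the 4 urethra control libraries (horizontal, log axis) for the 13060 genes tested; coloured points are members of 4 gene lists and the 13 secreted-protein genes of the urethra, and the line marks equal means. Prostate secretion genes such as Tgm4 lie far above the line, and most skeletal muscle genes and the 13 secreted-protein genes lie far below it.

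The secretion of the anterior prostate rested on a few transcripts of very high abundance. Pbsn was at 57693, 56135, 53368 and 49888 TPM in AP, against 732, 1948, 6304 and 548 TPM in urethra. Every AP library was thus above every urethra library, with a log2 difference of 5.18 ± 0.63 (adjusted p = 2.65e-05). Tgm4, the prostate transglutaminase that cross-links seminal proteins into the copulatory plug, was at 34692, 34582, 37890 and 30405 TPM in AP, against 248, 229.8, 31.6 and 173 TPM in urethra, with a log2 difference of 8.00 ± 0.54 (adjusted p = 3.09e-07). 9530053A07Rik, for which RefSeq lists the IgG Fc-binding protein FCGBP as a synonym, averaged 46696 ± 6647 TPM in AP and 184 ± 104 TPM in urethra. In the other untreated lobe, DLP, Tgm4 averaged 12007 ± 2566 TPM and 9530053A07Rik 13117 ± 2858 TPM; both were higher in AP than in DLP (log2 differences of 1.54 and 1.85, adjusted p = 8.12e-05 and 3.95e-05). Pbsn averaged 42168 ± 8175 TPM in DLP and was not called between the lobes (log2 difference of 0.38, adjusted p = 0.17). The comparisons with urethra and with DLP share the AP libraries.

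The largest difference in favour of AP was that of Ren1, which encodes renin, the protease that releases angiotensin I. Ren1 was at 4953, 5707, 5408 and 5465 TPM in AP, against 2.98, 0.08, 0.08 and 0 TPM in urethra, and the groups lay more than 3 orders of magnitude apart. The log2 difference was 11.84 ± 0.38 (adjusted p = 1.1e-09). Ren1 averaged 112 ± 122 TPM in DLP, where single libraries lay between 3.35 and 220.2 TPM. Ren2, a near-identical copy of renin that some mouse strains carry, was listed at 649 to 811 TPM in AP and at 0 in all 4 urethra libraries. Reads of the pair cannot be assigned with certainty, so the split between Ren1 and Ren2 is uncertain. The values listed for Ren2 do not show that these C57/BL6 mice carry it.

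Among the other genes with the largest rises in AP were enzymes and secreted proteins. C1rb, a copy of the complement protease C1r, averaged 3560 ± 362 TPM in AP and 6.15 ± 5.79 TPM in urethra, and since C1r has a close paralog in the mouse, its reads are uncertain. Pnliprp1, a relative of pancreatic lipase, averaged 1031 ± 167 TPM in AP, 2.65 ± 2.42 TPM in urethra and 49.5 ± 23.2 TPM in DLP. Fgl1, a fibrinogen-like secreted protein, averaged 1691 ± 148 TPM in AP and 6.29 ± 4.62 TPM in urethra. The matrix metalloprotease matrilysin (Mmp7) was at 6178, 6974, 5894 and 6606 TPM in AP, against 104, 81.0, 83.6 and 86.8 TPM in urethra, with no overlap and little spread in either tissue (log2 difference of 6.16 ± 0.09, adjusted p = 5.57e-12). Glb1l3, a beta-galactosidase-like gene, rose by 8.65 ± 0.26 on the log2 scale, Gsdma (gasdermin A, which has close paralogs in the mouse) by 7.67 ± 0.31, and Ms4a5, a four-span membrane protein gene, by 6.24 ± 0.23. Fam115e, named Tcaf3 in RefSeq, rose by 6.11 ± 0.53. Atp12a, the non-gastric proton and potassium pump, averaged 262 ± 36.0 TPM in AP and 3.50 ± 2.47 TPM in urethra. The glycosyltransferase B3gnt7 averaged 98.6 ± 9.60 TPM in AP and 0.938 ± 0.168 TPM in urethra. Prdx6, a peroxiredoxin, was among the 10 most abundant AP genes at 6002 ± 564 TPM, against 197 ± 101 TPM in urethra.

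Other prostate secretions ran the opposite way. Of 18 secretion genes listed and tested, 8 were higher and 5 lower in AP (44.4% and 27.8%), near the 42.3% and 33.2% over all genes, with a median log2 difference of 0.50. The count therefore says little of the list, whose members differed in size and direction. Spink3, Sbp (spermine-binding protein) and Crisp1 (a cysteine-rich secretory protein) were lower in AP than in urethra, by 7.59 ± 0.87, 6.78 ± 0.90 and 5.40 ± 0.94 on the log2 scale (adjusted p = 1.81e-05, 5.6e-05 and 4e-04). Sbp was at 3.66, 2.78, 2.94 and 2.79 TPM in AP, against 129, 3242, 808 and 112 TPM in urethra, so that the 2 urethra libraries with the most Pbsn also held the most Sbp. Msmb, which encodes beta-microseminoprotein, averaged 45.2 ± 29.7 TPM in AP and 2599 ± 4186 TPM in urethra, where libraries 7 and 8 stood at 1450 and 8802 TPM and libraries 6 and 10 at 44.2 and 102 TPM. The groups overlapped, and its call (adjusted p = 0.0376) was lost without AP library 7, 8 or 9 or urethra library 7 or 8 (adjusted p between 0.0685 and 0.0952). Defb50, a defensin, followed the same libraries, with 1650 ± 309.7 TPM in AP and 3982 ± 6039 TPM in urethra, and was not called, but without urethra libraries 7 and 8 it was higher in AP, by 2.99 on the log2 scale (adjusted p = 9.98e-05). All 5 of these genes were lower in AP than in DLP, where limma called 57.7% of 12865 genes between the lobes and 22.5% lower in AP: Sbp averaged 12745 ± 23486 TPM, Msmb 13311 ± 3191 TPM, Defb50 22359 ± 4644 TPM, Spink3 3590 ± 6444 TPM and Crisp1 1017 ± 128 TPM there. The DLP libraries also held seminal vesicle transcripts at 17.3 to 23.9% of TPM. The part of DLP tissue in these urethral values was not tested. As a share of TPM, the 18 secretion genes made up 11.5 ± 0.26% of AP libraries and 1.25 ± 1.44% of urethra libraries (n = 4 each). The single urethral shares were 0.225, 1.23, 3.28 and 0.247%. All AP shares were above all urethral shares (exact two-sided permutation test, p = 0.0286, the smallest that 4 against 4 libraries allow; adjusted p = 0.0334 over 7 shares).

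The share of seminal vesicle transcripts rested on 1 library. It was 0.0781, 0.0899, 0.00430 and 5.43% in AP and 0.217, 0.336, 0.0330 and 0.460% in urethra (exact permutation p = 0.943). Svs2, a seminal clotting protein, was at 26856 TPM in AP library 9 and at 13.3 to 56.3 TPM in the other 3 AP libraries, which put it among the 10 most abundant AP genes by its mean alone. In urethra it was at 85.6 to 888 TPM. Svs2 was not called over all 8 libraries (log2 difference of -0.43 ± 2.03), but it was lower in AP when AP library 9 was left out, by 2.90 on the log2 scale (adjusted p = 0.00527). Of 7 seminal vesicle genes tested, 1 was called, Ceacam10, a secreted glycoprotein of the seminal vesicle, which was lower in AP by 1.79 ± 0.18.

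**Figure D3:**
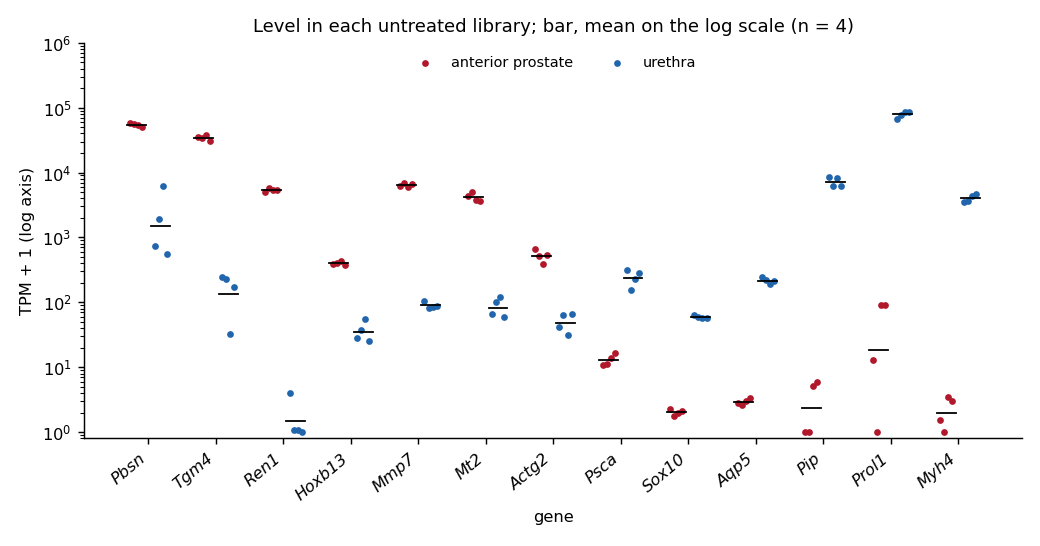
TPM + 1 on a log axis for 13 genes in each of the 8 untreated libraries, AP left and urethra right within each gene; points are libraries and bars the mean on the log scale (n = 4). Pbsn to Actg2 lie higher in every AP library, and Psca to Myh4 lie higher in every urethra library.

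Genes of prostate luminal identity were mostly higher in AP, with exceptions. Of 20 luminal identity genes tested, 13 were higher and 5 lower (65% and 25%, against 42.3% and 33.2% over all genes). Their median log2 difference was 1.09, against 0.10 over all genes. The log2 difference of Hoxb13 was 3.51 ± 0.20 (adjusted p = 8.6e-08); its groups did not overlap, and urethra library 8 was again the highest of its group. Foxa1, a pioneer factor that opens chromatin in epithelial cells, averaged 133 ± 11.7 TPM in AP and 40.5 ± 6.10 TPM in urethra. Tmprss2, an androgen-driven membrane protease, rose by 2.46 ± 0.08, Fut9, a fucosyltransferase, by 4.13 ± 0.11, Dpp4, a cell-surface dipeptidase, by 2.08 ± 0.11, and Steap1, a metalloreductase, by 2.63 ± 0.12. The simple-epithelial keratins differed less: Krt18 averaged 895 ± 53.2 TPM in AP and 326 ± 5.19 TPM in urethra, and Krt8 402 ± 10.6 TPM in AP and 291 ± 26.5 TPM in urethra. The call of Krt8 was lost after rescaling without the leading genes of both tissues (log2 difference of 0.16, adjusted p = 0.0558). Fkbp5, given next with the genes of steroid hormone action, was among the 5 lower members of this list. Creb3l4 and Bex1 were not called.

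Among genes of steroid hormone action, Fkbp5, an androgen- and glucocorticoid-induced co-chaperone, was lower, at 38.7 ± 10.8 TPM in AP and 87.9 ± 17.4 TPM in urethra. Over the 21 steroid hormone genes tested, 10 were higher and 8 lower (47.6% and 38.1%), close to the 42.3% and 33.2% over all genes. Esr1, the oestrogen receptor alpha, was at 13.8, 12.9, 20.4 and 13.4 TPM in AP, against 3.34, 3.74, 3.95 and 3.35 TPM in urethra (log2 difference of 1.79 ± 0.14). The prolactin receptor Prlr averaged 73.2 ± 6.20 TPM in AP and 11.3 ± 4.85 TPM in urethra, and Stat5a, the factor that carries its signal to the nucleus, 229 ± 24.0 TPM in AP and 20.2 ± 5.22 TPM in urethra (log2 difference of 3.47 ± 0.15, adjusted p = 8.75e-09). Srd5a2, the steroid 5-alpha reductase that makes dihydrotestosterone, was at 12.7 ± 1.57 TPM in AP and 5.95 ± 2.22 TPM in urethra, and Cyp7b1, which hydroxylates steroids, at 12.9 ± 0.94 TPM in AP and 2.24 ± 0.23 TPM in urethra. Akr1c14, which reduces dihydrotestosterone, fell by 1.21 ± 0.14 on the log2 scale. Pgr, the progesterone receptor, averaged 0.670 TPM in AP and 0.450 TPM in urethra and did not pass the filter.

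The machinery that makes and exports proteins was higher in AP almost throughout. Of 49 ribosomal protein genes, 48 were higher and 0 lower, and together they made up 11 ± 0.75% of AP libraries and 5.12 ± 0.11% of urethra libraries (exact permutation p = 0.0286, adjusted p = 0.0334). Rpl13a, of the large subunit, averaged 2539 ± 157 TPM in AP and 903 ± 42.3 TPM in urethra, and Eef1a1, the elongation factor that brings in aminoacyl-tRNA, 13279 ± 769 TPM in AP and 4903 ± 216 TPM in urethra. Of 48 genes of endoplasmic reticulum translocation and folding, 42 were higher and 4 lower. Pdia6, a disulfide isomerase, was at 1655, 1633, 1769 and 1716 TPM in AP, against 301, 319.7, 451 and 279.5 TPM in urethra (log2 difference of 2.35 ± 0.13). The stress sensor Atf6 rose by 2.07 ± 0.07, and the signal recognition particle gene Srp14 by 1.85 ± 0.07. Ero1lb, the oxidase of secretory cells such as those of the pancreas, ran the other way, at 5.01 ± 2.55 TPM in AP and 73.3 ± 9.65 TPM in urethra, as did Creb3l1, a membrane-bound factor of secretory cells, at 4.98 ± 1.02 TPM in AP and 31.4 ± 6.26 TPM in urethra. The chaperone Hspa5 was at 1800 ± 169.8 TPM in AP and 1637 ± 161 TPM in urethra and was not called, and under quantile normalization it was lower in AP. Of 29 N-glycosylation genes 24 were higher and 4 lower, led by the mannosidase Man1a with 755 ± 72.6 TPM in AP and 58.5 ± 10.4 TPM in urethra. Of 33 genes of COP vesicle transport 28 were higher and 2 lower. The cargo receptor Tmed3 rose by 1.78 ± 0.07 and the KDEL receptor Kdelr1 by 1.25 ± 0.04, whereas the COPII GTPase Sar1b fell by 1.01 ± 0.09. After rescaling without the leading genes of both tissues, 48 ribosomal, 32 folding, 21 N-glycosylation and 26 vesicle genes were still called higher.

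Metal handling and mitochondrial genes separated the tissues too. The metallothionein genes Mt1 and Mt2, whose products bind zinc, averaged 5668 ± 863 and 4163 ± 622 TPM in AP and 187 ± 27.8 and 85.5 ± 28.1 TPM in urethra, log2 differences of 4.92 ± 0.13 and 5.64 ± 0.21 (adjusted p = 2.19e-10 and 3.03e-09). The zinc exporter Slc30a2 averaged 105 ± 8.67 TPM in AP and 12.7 ± 3.71 TPM in urethra, and the importer Slc39a8 144 ± 12.5 TPM in AP and 31.6 ± 1.52 TPM in urethra, but another exporter, Slc30a4, fell by 1.86 ± 0.09 on the log2 scale. In all, 13 of 23 citrate and zinc genes were higher and 7 lower (56.5% and 30.4%, against 42.3% and 33.2% over all genes). Of 49 nuclear genes of oxidative phosphorylation, 40 were lower and 3 higher in AP, among them the complex I gene Ndufs1 at 52.4 ± 2.87 TPM in AP and 204 ± 15.7 TPM in urethra and the complex II gene Sdha at 137 ± 7.19 TPM in AP and 433 ± 36.0 TPM in urethra. Skeletal muscle transcripts, given further on, moved with these genes, and their part in the result was not tested. The table holds 0 of the 13 mitochondrially encoded genes.

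Polyamine and sterol genes showed smaller differences. Of 13 polyamine genes 7 were higher and 2 lower in AP (53.8% and 15.4%, against 42.3% and 33.2% over all genes). Arg2, the mitochondrial arginase that makes ornithine, rose by 3.58 ± 0.20, to 69.2 ± 2.69 TPM in AP, against 5.16 ± 2.17 TPM in urethra. The spermidine synthase Srm rose by 0.83 ± 0.05 and the ornithine decarboxylase Odc1 by 0.35 ± 0.07, a call that was lost after rescaling without the leading genes of both tissues, while the spermine oxidase Smox fell by 0.87 ± 0.07. Of 23 cholesterol synthesis genes 9 were higher and 10 lower (39.1% and 43.5%). Of 38 cell cycle genes, 8 were higher and 3 lower, but 22 and 3 under quantile normalization and 3 and 9 of 39 after rescaling without the leading genes of both tissues, so the list has no settled direction. Top2a, a DNA topoisomerase, was at 18.3 ± 3.12 TPM in AP and 6.58 ± 0.855 TPM in urethra, but Mki67 was at 6.00 ± 1.35 TPM in AP and 7.10 ± 1.05 TPM in urethra and was not called. The medians of the polyamine, cell cycle and steroid hormone lists were above 0 (0.21, 0.15 and 0.23) and turned negative (-0.01, -0.10 and -0.04) when the leading genes of both tissues were left out before rescaling.

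The 4 most abundant transcripts of the urethra libraries were those of 2310057J18Rik, Prol1, Gm7714 and Smr2, which were scarce in AP. The RIKEN gene 2310057J18Rik, for which RefSeq gives the synonym Leg1, was at 9.55, 0, 99.8 and 98.8 TPM in AP, against 152309, 136908, 107284 and 117247 TPM in urethra. Prol1, a mucin-like gene with the synonym Muc10, was at 12.0, 0, 90.2 and 89.9 TPM in AP, against 66631, 77367, 84364 and 86465 TPM in urethra. The groups lay far apart for both genes, but AP libraries 8 and 9 stood above AP libraries 6 and 7. Pip, prolactin-induced protein, a protein abundant in saliva and tears, averaged 2.27 ± 2.65 TPM in AP and 7226 ± 1209 TPM in urethra (log2 difference of -11.57 ± 0.56, adjusted p = 2.55e-08).

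A set of 13 such genes, picked after the values were seen and given without a test, holds these 3 genes together with Gm7714, Smr2, Smr3a, Mup20, Mup4, Dcpp3, Car6, Odam, Abpa and Expi. It made up 0.00317, 0.000327, 0.0236 and 0.0232% of the AP libraries, against 28.8, 27.0, 23.2 and 24.0% of the urethra libraries. Smr2, a submaxillary gland androgen-regulated protein, averaged 4.81 ± 5.61 TPM in AP and 10567 ± 4226 TPM in urethra, and Mup20, a pheromone-binding lipocalin, 1.74 ± 1.83 TPM in AP and 1621 ± 604 TPM in urethra. The Mup and Dcpp genes have near-identical copies, so the values of Mup20, Mup4 and Dcpp3 are uncertain. Car6, the secreted carbonic anhydrase of saliva, was at 0.190 ± 0.163 TPM in AP and 391 ± 83.9 TPM in urethra. Abpa, the alpha subunit of the salivary androgen-binding protein, was listed at 0 in all 4 AP libraries and at 106 to 459 TPM in urethra. In DLP, Pip averaged 0.258 ± 0.515 TPM and Prol1 3.35 ± 6.56 TPM. Odam, Smr3a, Smr2, Gm7714 and Prol1 lie in this order on chromosome 5 in the RefSeq annotation of GRCm38.p6; of the 8 protein-coding genes from Odam to Prol1, these 5 are the ones in the table, and all 5 were lower in AP.

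Genes of fluid and ion movement were mostly lower in AP too. Of 28 ion and water transport genes tested, 24 were lower and 4 higher in AP, with a median log2 difference of -1.68. These are 85.7% and 14.3%, against 33.2% lower and 42.3% higher over all genes. Aqp5, the apical water channel of salivary and tear glands, was at 1.81, 1.63, 1.99 and 2.40 TPM in AP, against 240.3, 219, 193 and 213 TPM in urethra, with no overlap and a log2 difference of -6.20 ± 0.09 (adjusted p = 6.77e-12). Kcnn4, a calcium-activated potassium channel, averaged 3.50 ± 3.26 TPM in AP and 252 ± 29.3 TPM in urethra, and Slc12a2, the sodium, potassium and chloride cotransporter, 9.08 ± 1.59 TPM in AP and 305 ± 16.3 TPM in urethra. Car2, the cytosolic carbonic anhydrase, was one of the 4 higher genes, with 279 ± 30.2 TPM in AP and 33.0 ± 4.71 TPM in urethra. Among claudins and other tight junction genes, 14 of 22 were higher and 8 lower (63.6% and 36.4%, against 42.3% and 33.2% over all genes). Cldn10, a pore-forming claudin, averaged 6.74 ± 3.01 TPM in AP and 506 ± 43.2 TPM in urethra, whereas Cldn8, a sealing claudin, averaged 339 ± 29.1 TPM in AP and 25.3 ± 8.94 TPM in urethra. Of 21 mucosal defence genes 7 were higher and 10 lower (33.3% and 47.6%). The higher ones included Agr2, a disulfide isomerase of mucus-making cells, at 2896 ± 184 TPM in AP and 881 ± 143 TPM in urethra, and the acute-phase gene Saa3, at 53.3 ± 24.3 TPM in AP and 2.71 ± 4.41 TPM in urethra. Among the lower ones was Ltf, the iron-binding lactoferrin, at 0.435 ± 0.379 TPM in AP and 25.2 ± 2.66 TPM in urethra.

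Markers of the proximal prostate ducts, a luminal cell type next to the urethra, were lower in AP. Of 19 proximal luminal genes tested, 16 were lower and 3 higher, with a median log2 difference of -3.56. Nupr1, a stress-response regulator, was at 15.2, 12.7, 14.4 and 12.7 TPM in AP, against 1052, 1041, 895 and 1034 TPM in urethra (log2 difference of -6.09 ± 0.08, adjusted p = 3.35e-12). Psca, prostate stem cell antigen, was at 9.83, 10.4, 12.8 and 15.4 TPM in AP, against 308, 154, 229.9 and 285 TPM in urethra. Neither gene overlapped between the tissues. Cyp2f2 (a cytochrome P450) and Krt4 (a keratin of moist stratified epithelia) fell by 5.56 ± 0.09 and 4.36 ± 0.14. The 3 higher genes were Cldn4 (a claudin), Krt19 (a keratin) and Atp1b1 (a sodium pump subunit), with log2 differences of 1.78 ± 0.07, 1.71 ± 0.12 and 0.62 ± 0.06.

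Basal and urothelial genes were divided. Of 17 basal genes 11 were lower and 3 higher. Krt5 averaged 66.6 ± 8.14 TPM in AP and 137 ± 21.1 TPM in urethra, and Krt15 134 ± 17.1 TPM in AP and 488 ± 113 TPM in urethra, but Krt14, the partner keratin of Krt5, was higher, at 36.2 ± 6.66 TPM in AP and 21.4 ± 2.73 TPM in urethra. Trp63, the factor that maintains basal cells, was at 12.5, 13.9, 13.5 and 16.1 TPM in AP, against 18.8, 15.8, 16.1 and 16.7 TPM in urethra. These values overlapped, and the call (log2 difference of -0.25 ± 0.09, adjusted p = 0.0225) was lost without AP library 6 or urethra library 6 (adjusted p = 0.0669 and 0.068), under quantile normalization and in the rank test. After rescaling without prostate secretion genes the difference was -0.09 (adjusted p = 0.385). Of 15 urothelial genes 9 were lower and 5 higher. Upk1a was at 22, 20.7, 21.5 and 18.9 TPM in AP, against 292, 255, 323 and 266 TPM in urethra (log2 difference of -3.71 ± 0.08), and the zinc-finger factor Klf5 fell by 2.90 ± 0.09. Upk1b, which encodes a uroplakin of the same tetraspanin family, ran the other way at 222 ± 13.6 TPM in AP and 43.3 ± 4.58 TPM in urethra, as did Gata3, a factor of luminal and urothelial cells, at 181 ± 11.6 TPM in AP and 18.7 ± 1.45 TPM in urethra, and Tbx3, a T-box repressor, at 135 ± 17.5 TPM in AP and 28.6 ± 1.71 TPM in urethra. With these 3 genes in it, the share of the urothelial list was higher in AP, at 0.0630 ± 0.0048% against 0.0495 ± 0.0045% in urethra (exact permutation p = 0.0286, adjusted p = 0.0334). Of 10 stratified epithelium genes, 4 were lower and 2 higher.

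**Figure D4:**
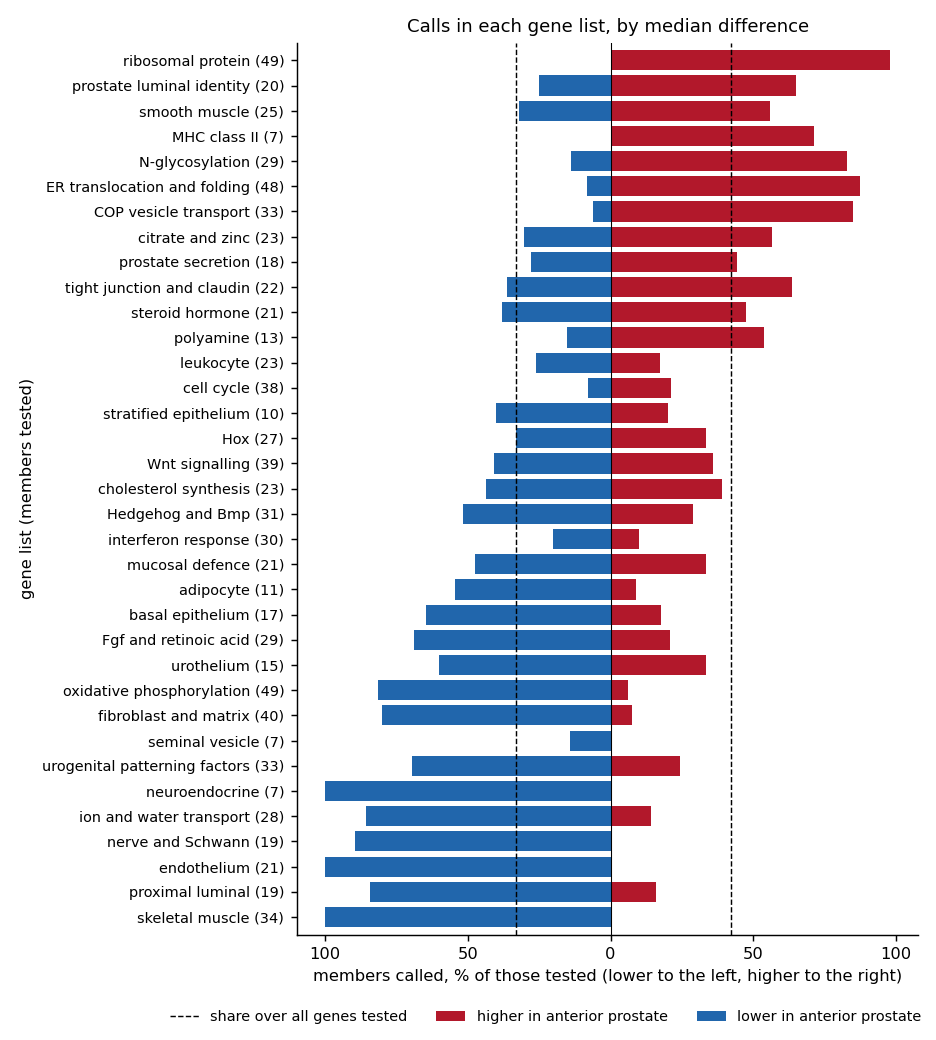
Share of the tested members of each of 35 gene lists that were called higher in AP (right) or lower in AP (left), with the number tested in brackets; lists are ordered by their median log2 difference and dashed lines mark the shares over all genes tested (42.3% higher, 33.2% lower). Ribosomal protein genes lie at the top, and skeletal muscle, proximal luminal and endothelial genes at the bottom.

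Striated muscle transcripts were low in AP and abundant in every urethra library. All 34 skeletal muscle genes tested were lower in AP, against 33.2% of all genes, with a median log2 difference of -7.28. Their share of TPM was 0.0948, 0.0807, 0.0775 and 0.0893% in AP, against 7.17, 7.23, 8.54 and 8.52% in urethra (exact permutation p = 0.0286, adjusted p = 0.0334). Most of the AP share came from Acta1 and Des, given below, and the smooth muscle list holds Des as well. Myh4, the fast 2B myosin heavy chain, was at 0.55, 0, 2.42 and 2.00 TPM in AP, against 3554, 3659, 4294 and 4593 TPM in urethra. The groups were separate by more than 3 orders of magnitude, and AP libraries 8 and 9 were again above the other two. The log2 difference was -10.97 ± 0.33 (adjusted p = 8e-10).

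In the urethra the fast troponins were above their slow counterparts, while myosins were mixed. In AP, Tnnt3, Tnni2 and Myh1 averaged 5.81 ± 5.03, 5.46 ± 5.16 and 1.53 ± 1.45 TPM. The fast troponin genes Tnnt3, Tnni2 and Tnnc2 averaged 9749 ± 925, 6677 ± 739.7 and 6995 ± 860.3 TPM in urethra, while their slow counterparts Tnnt1, Tnni1 and Tnnc1 averaged 18.0, 1.17 and 1.56 TPM there. Among urethral myosin heavy chains, Myh1 (fast 2X) averaged 1582 ± 104 TPM and Myh8 (perinatal) 543 ± 65.3 TPM, and Myh2 (fast 2A) 13.4 ± 3.56 TPM. Myl3, the light chain of slow and ventricular myosin, averaged 0.973 ± 1.04 TPM in AP and 1576 ± 149.9 TPM in urethra. The calcium pump Atp2a1 averaged 1.59 ± 1.5 TPM in AP and 3095 ± 459.9 TPM in urethra, and the oxygen carrier Mb (myoglobin) 3.44 ± 2.93 TPM in AP and 4755 ± 658 TPM in urethra. Myod1, the regulator of the myogenic fate, was listed at 0 in all 4 AP libraries and at 4.70 to 7.26 TPM in urethra. Glycolytic genes that every cell uses moved in the same direction: Aldoa (aldolase) averaged 483 ± 12.8 TPM in AP and 7296 ± 856 TPM in urethra, and Gapdh 827 ± 26.5 TPM in AP and 7085 ± 712 TPM in urethra. Acta1, skeletal alpha actin, had the highest AP level of the 34 genes, at 357 ± 44.2 TPM, against 8530 ± 934 TPM in urethra.

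Smooth muscle genes separated into groups of opposite direction. Of 25 tested, 14 were higher and 8 lower in AP (56% and 32%, against 42.3% and 33.2% over all genes), with a median log2 difference of 0.91. Actg2, the enteric smooth muscle actin, was at 659.5, 519, 386 and 533 TPM in AP, against 40.4, 63.7, 30.1 and 66.0 TPM in urethra, with no overlap and a log2 difference of 3.41 ± 0.24 (adjusted p = 4.74e-07). The calponin gene Cnn1, transgelin (Tagln), the smooth muscle myosin Myh11 and the actin Acta2 rose by 2.74 ± 0.17, 2.42 ± 0.14, 1.85 ± 0.16 and 1.53 ± 0.16. The lower members were led by genes that striated muscle also uses: the Z-disc gene Ldb3 (2.33 ± 0.46 TPM in AP and 493 ± 41.3 TPM in urethra), the tropomyosins Tpm1 (688 ± 84.3 TPM in AP and 5466 ± 336 TPM in urethra) and Tpm2 (444 ± 63.5 TPM in AP and 1983 ± 212 TPM in urethra), and desmin (Des, 350.4 ± 51.1 TPM in AP and 937 ± 162 TPM in urethra). The summed share of the list was therefore lower in AP, at 0.781 ± 0.095% against 1.13 ± 0.09% in urethra (exact permutation p = 0.0286, adjusted p = 0.0334), opposite to its median. Smtn and Srf, a cytoskeletal protein and the factor that drives contractile genes, were not called.

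**Figure D5:**
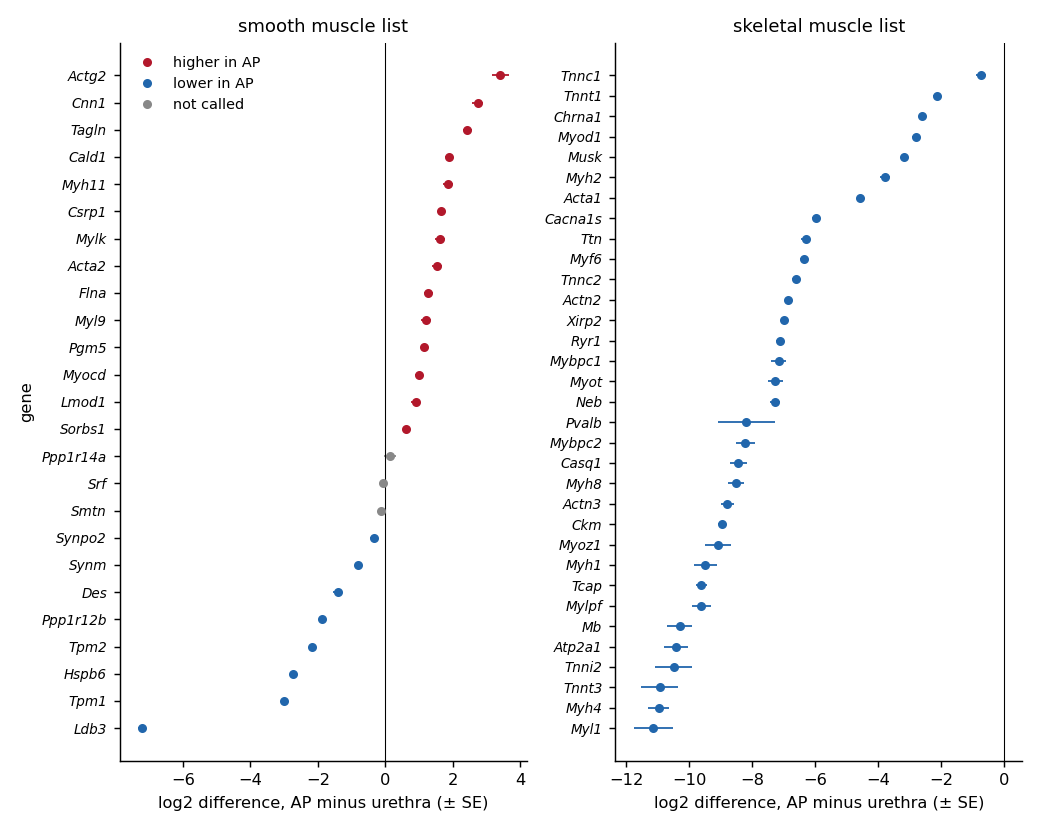
Log2 difference (AP minus urethra) with its standard error for each gene of the smooth muscle list (left) and the skeletal muscle list (right, without Des, which both lists hold), ordered by size. Skeletal muscle genes all lie below 0, whereas smooth muscle genes run from Actg2 at 3.41 to Ldb3 at -7.22.

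Genes of vessels, nerve and connective tissue were lower in AP. All 21 endothelial genes tested were lower, with a median log2 difference of -1.81. Pecam1 was at 13.3, 13.4, 14.1 and 13.9 TPM in AP, against 54.0, 59.5, 53.7 and 61.9 TPM in urethra, and the adhesion gene Cdh5 averaged 5.51 ± 0.35 TPM in AP and 40.9 ± 1.98 TPM in urethra. Of 19 nerve and Schwann cell genes 17 were lower and 0 higher. Sox10, the factor of Schwann cells, and also of secretory cells in salivary and tear glands, was at 1.30, 0.78, 0.95 and 1.15 TPM in AP, against 63.9, 58.2, 56.8 and 55.9 TPM in urethra (log2 difference of -4.87 ± 0.09). Neuronal genes varied between urethra libraries: Uchl1 was at 7.19, 4.81, 6.68 and 3.29 TPM in AP, against 8.20, 40.6, 57.2 and 62.5 TPM in urethra, and the peripheral neuron filament Prph averaged 3.29 ± 1.33 TPM in AP and 22.6 ± 15.2 TPM in urethra. Urethra library 6 was the low one for both genes. For Prph it stood at 2.03 TPM, within the AP range of 1.55 to 4.42 TPM, so the groups overlapped. That library also lay within the AP range for some other called genes of this list. The call of Prph was lost without AP library 9 or urethra library 8 or 10 (adjusted p between 0.0508 and 0.0605). It was also lost with robust limma, in the rank test and with the replicate block (adjusted p = 0.0719, 0.238 and 0.0692). Among neuroendocrine genes, Chga, which passed the filter through the urethra alone, was at 0.743 ± 0.087 TPM in AP and 3.47 ± 1.02 TPM in urethra.

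Of 40 fibroblast and matrix genes 32 were lower and 3 higher. Col3a1 was at 142, 99.6, 99.3 and 107 TPM in AP, against 334, 317, 248 and 414 TPM in urethra (log2 difference of -1.53 ± 0.16), and Vim, Cd34 and Pdgfrb fell by 1.5 ± 0.11, 1.71 ± 0.09 and 1.66 ± 0.13. Bgn and Fmod, proteoglycan genes, were not called. The list made up 0.199 ± 0.0148% of TPM in AP and 0.381 ± 0.072% in urethra (exact permutation p = 0.0286, adjusted p = 0.0334). Of 11 adipocyte genes 6 were lower and 1 higher; Car3, which muscle also expresses, was at 7.43 ± 6.55 TPM in AP and 2574 ± 79.5 TPM in urethra, while Adipoq, which defines fat cells, was at 0.920 ± 0.948 TPM in AP and 1.73 ± 2.11 TPM in urethra and was not called.

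Leukocyte transcripts were mostly not called. Of 23 tested, 4 were higher and 6 lower, a balance that turned to 8 and 3 under quantile normalization and to 8 and 4 after rescaling without prostate secretion genes. Ptprc, the pan-leukocyte gene Cd45, was at 5.01, 4.85, 4.35 and 6.07 TPM in AP, against 4.04, 6.00, 3.25 and 7.2 TPM in urethra, where the values overlapped. Mertk, a receptor for dying cells found on macrophages and on other cells, rose by 2.53 ± 0.13, to 61.1 ± 11.4 TPM in AP, against 9.66 ± 1.24 TPM in urethra. Kit, which mast cells and interstitial pacemaker cells carry, fell by 2.29 ± 0.18, whereas the mast cell protease genes Mcpt4 and Cpa3 rose by 1.39 ± 0.46 and 1.36 ± 0.30 (adjusted p = 0.0181 and 0.00206). Their groups overlapped, and the call of Mcpt4 was lost without AP libraries 8 and 9 or without urethra libraries 7 and 8 (adjusted p = 0.142 and 0.104). Both calls were lost in the rank test (adjusted p = 0.0758 for each), and that of Mcpt4 also with robust limma (adjusted p = 0.0536). Of 7 MHC class II genes 5 were higher and 0 lower; H2-Ab1 was at 148, 192, 133 and 189.8 TPM in AP, against 61.9, 95.6, 51.5 and 149 TPM in urethra. The groups overlapped, and after rescaling without the leading genes of both tissues 1 of the class II genes was called. Of 30 interferon response genes 3 were higher and 6 lower, with Ifit3 at 9.33 ± 1.83 TPM in AP and 22.6 ± 7.82 TPM in urethra.

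Of 27 Hox genes, which set position along the body axis, 9 were higher and 9 lower (33.3% each, against 42.3% higher and 33.2% lower over all genes). These shares are no higher than or close to those over all genes, and single members differed widely. Hoxb9 was at 79.0, 75.8, 82.6 and 71.0 TPM in AP, against 6.82, 6.55, 5.6 and 4.16 TPM in urethra (log2 difference of 3.54 ± 0.12). Hoxc10, in contrast, was at 0.32, 0.20, 0.08 and 0 TPM in AP, against 27.4, 31.2, 35.0 and 38.6 TPM in urethra. Neither gene overlapped between the tissues. Hoxc6 and Hoxc9, of the same cluster as Hoxc10, were lower too, by 2.76 ± 0.12 and 2.20 ± 0.10. Hoxd13, which the urogenital sinus needs for prostate growth, averaged 43.0 ± 7.15 TPM in AP and 28.4 ± 3.56 TPM in urethra, and Hoxa13 11.9 ± 3.78 TPM in AP and 10.1 ± 1.57 TPM in urethra. Hoxa13 was not called, and the call of Hoxd13 was lost after rescaling without the leading genes of both tissues.

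Among 33 other urogenital patterning factors, 23 were lower and 8 higher. Tbx18, a T-box factor of ureter and other mesenchyme, was at 0.145 ± 0.031 TPM in AP and 15.9 ± 1.63 TPM in urethra. Foxc1, a forkhead factor, fell by 3.09 ± 0.13. Gata2, a zinc-finger factor, averaged 246 ± 34.1 TPM in AP and 16.4 ± 0.719 TPM in urethra (log2 difference of 3.82 ± 0.09).

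Signalling genes were mixed within each family. Of 39 Wnt genes 14 were higher and 16 lower (35.9% and 41%, against 42.3% and 33.2% over all genes). The feedback inhibitors Nkd1 and Axin2, which Wnt signalling induces, averaged 61.6 ± 7.23 and 25.7 ± 2.81 TPM in AP and 3.49 ± 0.42 and 6.25 ± 1.22 TPM in urethra, and the amplifier Rspo3, the ligand Wnt2 and the nuclear factor Tcf7 rose by 3.01 ± 0.12, 1.96 ± 0.09 and 3.04 ± 0.11. The ligand Wnt4 and the receptor Fzd4 fell by 2.21 ± 0.16 and 2.17 ± 0.12, and Sfrp1, a secreted inhibitor, was not called. Of 31 Hedgehog and Bmp genes 9 were higher and 16 lower: Bmp7, a ligand that restrains prostate branching, averaged 71.9 ± 5.28 TPM in AP and 6.45 ± 3.44 TPM in urethra, and Id3, a target of Bmp signals, 309 ± 21.6 TPM in AP and 81.3 ± 10.5 TPM in urethra, while the ligand Shh was at 3.08 ± 0.59 TPM in AP and 8.32 ± 1.06 TPM in urethra and the transducer Smo at 8.78 ± 0.59 TPM in AP and 21.0 ± 2.63 TPM in urethra. Of 29 Fgf and retinoic acid genes 20 were lower and 6 higher, led by Aldh1a3, which makes retinoic acid, at 3.15 ± 0.48 TPM in AP and 36.2 ± 7.58 TPM in urethra, and the receptor Fgfr3, at 3.64 ± 0.25 TPM in AP and 33.8 ± 4.48 TPM in urethra; the receptor Fgfr2 averaged 19.6 ± 0.585 TPM in AP and 19.8 ± 1.97 TPM in urethra and was not called. The median of the Wnt list (-0.06) and that of the Hox list (-0.03) turned positive, to 0.42 and 0.36, under quantile normalization.

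The same tissues were compared in the separate T+E2 libraries. There limma called 9668 of 13051 genes (74.1%), with 6165 higher (47.2%) and 3503 lower (26.8%) in AP. Of 9775 genes called between untreated tissues and tested there, 7960 were called in the same direction, which is 81.4% of these and 82.3% of the T+E2 calls, and 239 (2.45%) in the opposite direction. Tgm4, Ren1, Myh4 and Aqp5 kept their direction, with log2 differences of 8.88, 9.49, -11.55 and -5.94 (adjusted p = 3.17e-06, 8.73e-06, 6.23e-13 and 3.94e-10). Prol1 was listed at 0 in all 4 T+E2 AP libraries and averaged 93560 ± 8649 TPM in T+E2 urethra.

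The difference between the tissues itself differed between T+E2 and untreated libraries for 3007 of 13299 genes (22.6%, interaction term in limma over the 16 libraries), of which 2085 (15.7%) were more in favour of AP under T+E2 and 922 (6.93%) less. The genes named next were picked after their values were seen. Upk1a was at 641, 889, 474 and 529 TPM in T+E2 AP libraries 2, 3, 17 and 18, against 229, 287, 338 and 242 TPM in T+E2 urethra libraries 1 to 4. It was thus higher in every T+E2 AP library, by 1.18 on the log2 scale, whereas untreated AP was lower, and the interaction was 4.89 ± 0.23 (adjusted p = 3.22e-10). Chga, a neuroendocrine granule gene, averaged 14 ± 6.47 TPM in T+E2 AP and 3.62 ± 1.76 TPM in T+E2 urethra, opposite to untreated tissue (interaction of 3.02 ± 0.38, adjusted p = 2.59e-05). Mmp7 kept its direction at a smaller size, with 942 ± 253 TPM in T+E2 AP and 81.9 ± 29.6 TPM in T+E2 urethra (interaction of -2.60 ± 0.32, adjusted p = 2.05e-05).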

How the data were processed

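Values were TPM from the authors' deposited table of 32 libraries. The submitters' processing notes name STAR, RSEM, edgeR, FastQC and the mm9 build, without roles; versions are not given in the sources used here. Strand and depth are not given either. Groups came from the labels. A gene was tested if 4 or more of the 8 libraries reached 1 TPM, and log2(TPM + 1) was tested with limma 3.58.1 (trend) in R 4.3.3, with the Benjamini-Hochberg threshold at 0.05; fold changes on this scale understate those of low genes. DLP and T+E2 comparisons were fitted separately in the same way, and shares of TPM were compared by exact permutation. Figures were drawn with matplotlib 3.10.9.

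On simulated data for AP against urethra (12886 genes) the fit recovered 94 of 100 genes changed 2-fold and 84 of 100 changed 1.5-fold, and called 10 of 12686 unchanged genes. The changed genes were drawn only among those of higher level in urethra, with independent noise in each library. They were far fewer than the genes called in the real comparison, so these rates need not hold there or for low genes. The members and the 36 gene lists were chosen with earlier results of these data known. The lists are those shown in the plot of list calls, and the mitochondrial genome list, which has 0 genes in the table.

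Genes were named by rule: the 15 largest differences each way without overlap and with at least 10 TPM, up to 6 called and 2 uncalled members of each list, the 10 most abundant genes of each tissue, and a fixed set. The 15 each way leave out predicted and RIKEN transcripts. Named after their values were seen were Abpa, Agr2, Atp1b1, Axin2, Car2, Car6, Cldn4, Dcpp3, Des, Expi, Fkbp5, Foxa1, Foxc1, Gapdh, Krt19, Msmb, Mup4, Myh2, Myh8, Myod1, Odam, Smo, Smr3a, Tnnc1, Tnnc2, Tnni1, Tnnt1 and Tpm2, and the RIKEN and Gm genes outside the 10 most abundant. Alternatives were other pseudocounts, filters, scalings and limma settings, a rank test, the replicate block and leaving out libraries; leaving out pairs of libraries and the scaling without leading genes of both tissues were chosen after seeing the data. A few results are not reported here.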

Additional observations from a re-analysis of the deposited data

Results flagged for a closer look

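In 368 groups of 4 values (the genes named and the shares, in both tissues), 28 held 1 library that stood far from the other 3; chance flags about 1 in 20 groups. The seminal vesicle share of AP library 9 was 5.43%. The same library stood apart at 233.6 TPM for Car2, 35.5 for Crisp1, 12138 for Eef1a1, 8.83 for Ero1lb, 867 for Gapdh and 32.3 for Hoxd13. AP library 8 stood apart at 315 TPM for Atp12a, 20.4 for Esr1, 297 for Gata2, 863 for Man1a and 265 for Stat5a. AP library 6 did so at 228 TPM for Cldn4, 0.10 for Hoxc6 and 10.6 for Sfrp1, and AP library 7 at 0.07 TPM for Hoxc9 and 0.67 for Spink3. Urethra library 8 stood apart at 11.6 TPM for Bmp7, 9.75 for Fam115e, 1.05 for Gsdma, 895 for Nupr1 and 165 for Srp14. Urethra library 7 did so at 1428 TPM for Myh1, 9.31 for Saa3 and 20.8 for Wnt4, urethra library 10 at 81.9 TPM for Odc1 and 53.9 for Smtn, and urethra library 6 at 2.98 TPM for Ren1. The interaction between tissue and T+E2 treatment was past the threshold for 3007 genes.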

How the results depend on the processing

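The count of 9853 genes was between 8671 and 10313 under 21 other settings and 8889 and 9388 without pairs of libraries; leaving out 1 library gave 9410 to 9777. Rescaled without the leading genes of both tissues, 3468 genes were higher and 6245 lower. This setting moved the median of all genes by -0.29, and the cause of the changed counts was not tested. Quantile normalization gave 6429 higher and 3884 lower, and rescaling without prostate secretion genes 6721 and 3577. Hspa5, not called, was -0.53 (adjusted p = 0.000992) under quantile normalization; the cause was not tested. Over 23 settings the 177 genes named gave 3955 values with no change of call, 34 that lost the call, 22 that gained it and 1 that reversed. A reversal was counted only where the main fit or the other setting called the gene. Changes of sign in genes that neither called were not counted.

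With 4 against 3 libraries the exact test of shares cannot go under 0.05, so no share keeps its call when 1 library is left out. The differences in percent of TPM then lay between 9.89 and 10.9 (prostate secretion), -0.38 and -0.31 (smooth muscle), -8.01 and -7.55 (skeletal muscle), -0.21 and -0.15 (fibroblast and matrix), 0.0112 and 0.0149 (urothelium), and 5.63 and 6.09 (ribosomal protein). The seminal vesicle difference reversed to -0.20 without AP library 9 and reached 1.61 without AP library 8.

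With replicate number as a block, 9204 genes were called, 9021 of them also called without it in the same direction. The deviations of same-numbered AP and urethra libraries correlated at -0.017, 0.074 and 0.205 for numbers 6, 7 and 8, which did not reach the level set for pairing in every pair, so the libraries were treated as unpaired. Libraries 7 and 8 correlated best with their own number and 6 did not; the labels do not say whether a number marks a mouse. The block gave 9237 calls for T+E2 and 6397 for AP against DLP. TPM keep no depth, so the precision of low genes is not known.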
